A study of Mus musculus with 6 samples.

Results

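The genes described here are 10 regulators of entry into and exit from the cell cycle, taken by symbol from a count table of 52997 gene symbols, and all 10 were found in it. They comprise the D-type cyclins Ccnd1, Ccnd2 and Ccnd3, the CDK inhibitors Cdkn1a, Cdkn1b and Cdkn1c, the growth arrest genes Btg2, Gadd45b and Gadd45g, and the transcription factor gene Myc. The libraries hold polyadenylated RNA of mesenchymal stromal cells, fibroblast-like cells of connective tissue, sorted from 2 tissues of 8-week-old C57BL/6 mice at rest. The tissues were hindlimb skeletal muscle (3 libraries) and a pool of inguinal, axillary, brachial and cervical lymph nodes (3 libraries), and each library came from 1000 cells. No genetic change or treatment is named for either tissue. The series calls the libraries biological replicates, but 2 muscle titles carry the same number, so p-values may in part measure technical spread. The sources used here do not give the sort markers.

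D-type cyclins are made when growth factors act on a cell, and they activate the kinases CDK4 and CDK6, which phosphorylate the retinoblastoma protein and so release E2F factors that transcribe the genes of DNA synthesis. The CIP/KIP proteins p21 (Cdkn1a), p27 (Cdkn1b) and p57 (Cdkn1c) bind cyclin-CDK complexes and hold cells before S phase, and p57 and p27 are typical of resting or differentiated cells. BTG2 and the GADD45 proteins slow growth after stress, while MYC drives growth and represses Cdkn1a. Several of these genes, Btg2, Gadd45b and Myc among them, are also transcribed within minutes of a stimulus or of tissue dissociation. Resting fibroblasts of adult tissues seldom divide.

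Total counts per library lay between 415460 and 1844874 in muscle and between 1851940 and 2397134 in lymph node. Libraries are called by their column numbers, muscle 2, 3 and 4 and lymph node 1, 2 and 3. All 10 stromal markers examined (Pdgfra, Col1a1 and Dcn among them) were detected in every library, with summed levels between 65010 and 84060 CPM (counts scaled to library size) in muscle and between 82440 and 103000 CPM in lymph node. Muscle library 4, the shallowest, stood apart, with Pearson r = 0.705 and 0.702 across genes to the other muscle libraries, which had r = 0.952 to each other. It also held RNA of blood cells. Its summed T cell, B cell, myeloid and erythroid markers measured 371, 1874, 715 and 626 CPM, with 0 of 8 T cell, 0 of 7 B cell, 4 of 9 myeloid and 0 of 5 erythroid markers at 0, whereas the highest sums in the other 5 libraries were 12.7, 260, 29.6 and 13.1 CPM. The B cell sum of 260 CPM was that of lymph node library 3, against 15.4 and 33.9 CPM in lymph node libraries 1 and 2. Of the myeloid sum in muscle library 4, 589 CPM were Ptprc, a gene of white blood cells in general. The myeloid markers at 0 there were Csf1r, Itgam, Cd68 and C1qa. Since some of the 10 genes are also transcribed in blood cells, the 10 genes are given with and without muscle library 4. The part of blood cell RNA in the levels of muscle library 4 and lymph node library 3 was not tested. Muscle columns are not linked to titles, so muscle libraries 2 and 3 may be the 2 titles that carry the same number. In the fit without muscle library 4, the spread within muscle may then be technical alone.

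Growth arrest genes and Myc were several-fold lower in muscle stroma than in lymph node stroma, whereas the D cyclins and p27 were not called different. Btg2 was 7.80-fold lower, Gadd45b 7.43-fold, Myc 4.35-fold and Gadd45g 3.50-fold. The inhibitors Cdkn1a and Cdkn1c pointed in opposite directions, Cdkn1a lower and Cdkn1c higher in muscle libraries 2 and 3. Without muscle library 4 both had an adjusted p under 0.05, but Cdkn1c entered that fit only through its muscle counts, so its call is no independent support. Of the 10 genes, 9 passed the filter on low counts and 4 were called lower, 0 higher (edgeR quasi-likelihood test, two-sided, Benjamini-Hochberg adjusted p under 0.05 over 10823 genes). Among all genes tested, 2.86% were called lower and 1.46% higher. Without muscle library 4, 5 of the 10 were called lower and 1 higher (Cdkn1c, with the limit just given), where 7.58% and 4.79% of 11246 genes were. The median log2 fold change (muscle over lymph node) was -1.04 over the 9 genes and 0.02 over all genes, and without muscle library 4 it was -0.44 over the 10 genes and 0.01 over all. Levels of the tissues did not overlap for 7 of the 9 genes, against 23.6% of all genes, with 5 lower (13.7% of all genes) and 2 higher in muscle (9.93%). Leaving out muscle library 4, they did not overlap for 9 of the 10 genes, against 39.7% of all genes. Of these, Cdkn1a, Btg2, Gadd45b, Gadd45g and Myc were lower in muscle. Ccnd1, Ccnd2, Cdkn1b and Cdkn1c were higher, with the limit given above for Cdkn1c. In bulk libraries, fewer cells with a transcript and less of it per cell cannot be told apart.

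**Figure D1:**
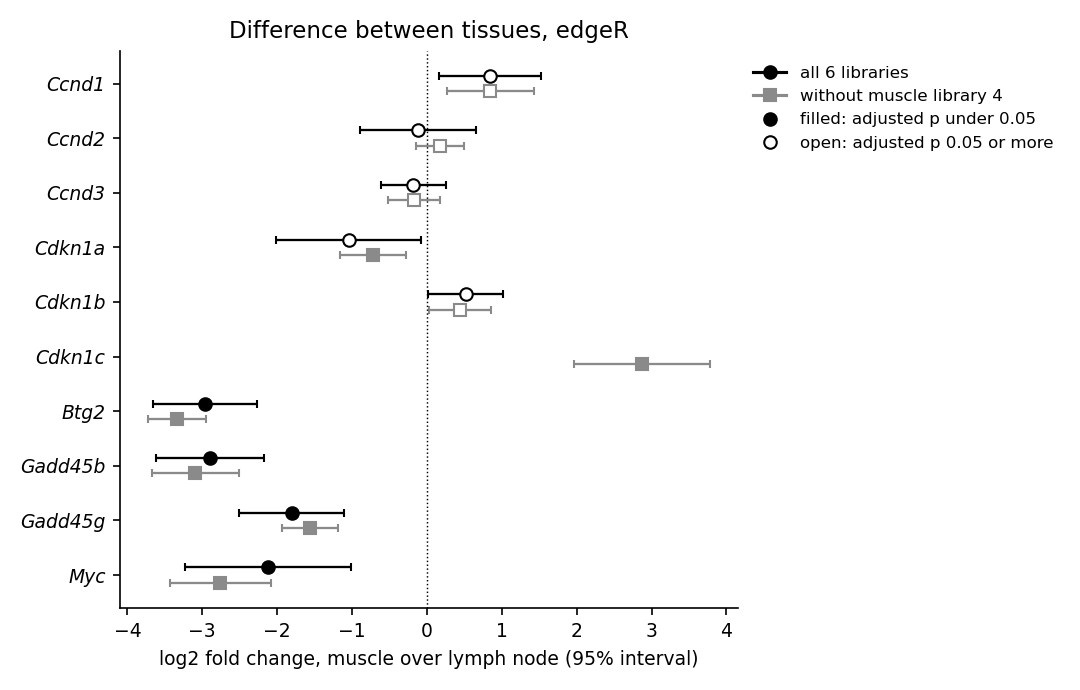
Log2 fold change of each gene, muscle over lymph node, with its 95% interval from edgeR, for all 6 libraries (black circles) and without muscle library 4 (grey squares), filled where the adjusted p was under 0.05. Btg2, Gadd45b, Gadd45g and Myc lie left of 0 in both fits, and Cdkn1c, at 2.87, was tested only without muscle library 4.

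BTG2, a protein of the BTG/TOB family that recruits the deadenylation machinery to messenger RNA, showed the widest gap of the set. Btg2 (chromosome 1, 134075170 to 134079120, GRCm38) measured 62.2, 89.1 and 153 CPM in muscle libraries 2, 3 and 4, against 714, 760 and 786 CPM in lymph node libraries 1, 2 and 3. Every muscle library was below every lymph node library, and muscle library 4 was the highest of the muscle libraries. The muscle mean was 102 ± 46.7 CPM and the lymph node mean 753 ± 36.1 CPM (SD, 3 libraries a tissue). The log2 fold change was -2.96 ± 0.31 (SE, adjusted p = 0.0011), and without muscle library 4 it was -3.34 ± 0.18 (adjusted p = 2.56e-08). Only 0.257% of its 25-base words occur in transcripts of other genes, so reads of other genes add little to it.

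The GADD45 proteins bind the kinase MAP3K4 and the cell cycle proteins PCNA and CDK1. Gadd45b (chromosome 10, 80930073 to 80932204) measured 8.44, 13.1 and 18.8 CPM in muscle libraries 2, 3 and 4, against 77.7, 109 and 79.2 CPM in lymph node libraries 1, 2 and 3. It was low in all 3 muscle libraries, where it rested on 16, 17 and 7 counts, and the tissues did not overlap. On the log2 scale the difference was -2.89 ± 0.32 (adjusted p = 0.00124), and -3.09 ± 0.27 without muscle library 4 (adjusted p = 2.7e-06). Btg2 and Gadd45b were called under all 17 alternatives run.

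Gadd45g (chromosome 13, 51846678 to 51848468) measured 83.3, 91.4 and 32.3 CPM in muscle libraries 2, 3 and 4, against 302, 239 and 227 CPM in lymph node libraries 1, 2 and 3. Here muscle library 4 was the lowest of all, while muscle libraries 2 and 3 lay close together. This gave a log2 fold change of -1.81 ± 0.31 (adjusted p = 0.0111), and -1.56 ± 0.17 without muscle library 4 (adjusted p = 2.19e-05). The call was lost without muscle library 2 (-1.95, adjusted p = 0.0505) and without any 1 lymph node library (adjusted p between 0.0663 and 0.0806), where the fold change stayed between -1.92 and -1.70.

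The promoter windows of the growth arrest genes are shown because these genes were low in muscle together. RefSeq windows (GRCm38.p6, 250 bases before to 50 after the start) matched 6 of the 10 symbols, Btg2, Gadd45b, Gadd45g, Cdkn1a, Cdkn1b and Ccnd3. Each is written 5′ to 3′ along the gene's strand, with matches to the motifs searched in capitals. The Btg2 window is chr1:134079106-134079405 on the minus strand, that of Gadd45b chr10:80929841-80930140 and that of Gadd45g chr13:51846425-51846724, both on the plus strand.
Btg2: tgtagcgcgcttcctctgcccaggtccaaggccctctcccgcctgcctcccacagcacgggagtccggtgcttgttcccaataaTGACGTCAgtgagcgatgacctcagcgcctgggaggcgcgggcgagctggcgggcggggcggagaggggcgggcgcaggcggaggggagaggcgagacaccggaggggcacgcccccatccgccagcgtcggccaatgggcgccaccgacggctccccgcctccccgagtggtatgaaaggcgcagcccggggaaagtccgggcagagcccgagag
Gadd45b: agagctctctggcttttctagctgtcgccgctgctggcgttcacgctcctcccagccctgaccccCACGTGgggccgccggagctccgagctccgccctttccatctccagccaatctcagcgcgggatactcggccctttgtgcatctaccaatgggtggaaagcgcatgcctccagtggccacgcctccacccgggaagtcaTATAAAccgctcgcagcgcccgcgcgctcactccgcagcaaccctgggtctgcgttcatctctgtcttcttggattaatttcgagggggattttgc
Gadd45g: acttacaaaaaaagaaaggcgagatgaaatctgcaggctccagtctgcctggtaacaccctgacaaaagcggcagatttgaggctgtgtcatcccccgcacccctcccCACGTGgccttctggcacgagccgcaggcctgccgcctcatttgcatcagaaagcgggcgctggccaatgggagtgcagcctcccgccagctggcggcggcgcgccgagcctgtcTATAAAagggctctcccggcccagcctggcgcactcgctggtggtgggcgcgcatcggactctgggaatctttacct

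The capitals in the Btg2 window are the cyclic AMP response element TGACGTCA, starting 166 bases upstream of the start and present in 1.79% of 32851 promoter windows. The shorter element TGACG, which it contains, was found in 20.8% of windows. Both Gadd45 windows hold an E-box CACGTG, starting 185 bases upstream in Gadd45b and 142 in Gadd45g (7.15% of windows), and a TATA box TATAAA, starting 46 and 27 bases upstream (13.6% of windows). Both strands were searched, and TGACGTCA and CACGTG read the same on each. The AP-1 motif TGANTCA (7.81% of windows), the CArG box (1.63%) and the NF-kB site (8.46%) had no match in these 3 windows. A match describes the letters and was not tested for binding.

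MYC is a transcription factor that raises ribosome production and metabolism. Myc (chromosome 15, 61985391 to 61990374) measured 32.7, 27.7 and 102 CPM in muscle libraries 2, 3 and 4, against 297.5, 131 and 190 CPM in lymph node libraries 1, 2 and 3. The tissues did not overlap, but muscle library 4 came nearest to lymph node library 2, and lymph node library 1 was the highest. The muscle mean was 54.2 ± 41.6 CPM and the lymph node mean 206 ± 84.4 CPM. On the log2 scale the difference was -2.12 ± 0.49 (adjusted p = 0.0448). It was -2.76 ± 0.31 without muscle library 4 (adjusted p = 2.97e-05), which turns a 4.35-fold into a 6.76-fold difference. The call was lost with RLE scaling (adjusted p = 0.0511), without muscle library 2 or 3 (0.167 and 0.177), without any 1 lymph node library (up to 0.209) and with muscle libraries 2 and 3 summed (0.182). In these fits the log2 fold change lay between -2.34 and -1.75.

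**Figure D2:**
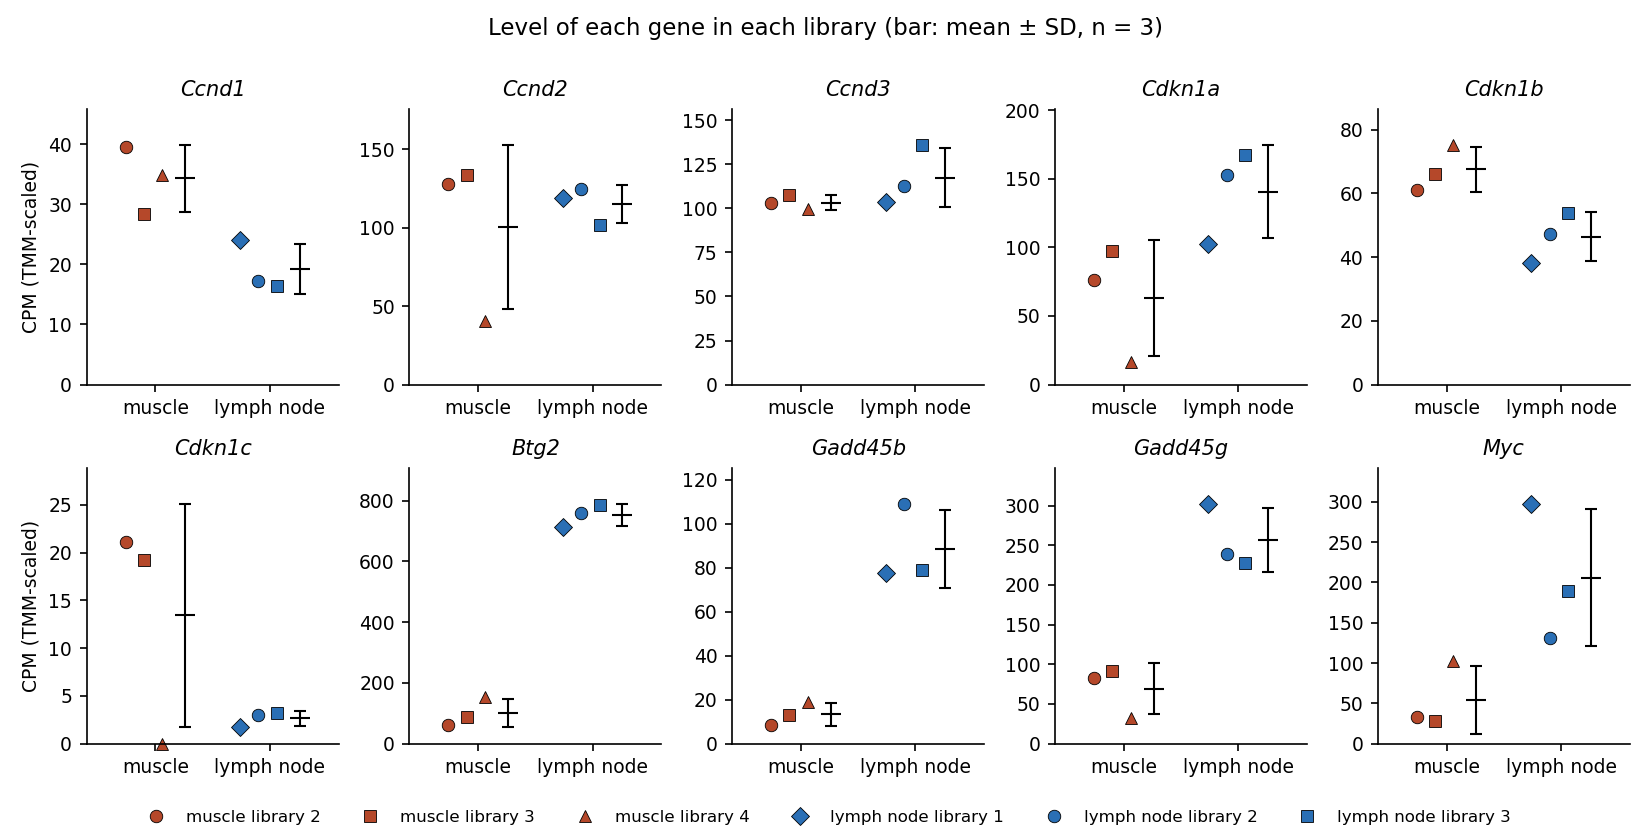
CPM (scaled by TMM library size) of the 10 genes in each muscle library (red) and each lymph node library (blue), 1 panel a gene, with symbols by library number and bars for the mean ± SD (n = 3). Muscle library 4 (triangle) lies apart from muscle libraries 2 and 3 for Ccnd2, Cdkn1a, Cdkn1c, Btg2, Gadd45g and Myc. Btg2 stays at or below 153 CPM in muscle and at or above 714 CPM in lymph node.

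None of the D cyclins was called different between the tissues with all libraries. Ccnd1, the cyclin most closely tied to growth factor and WNT signals (chromosome 7, 144929931 to 144939925), measured 39.6, 28.4 and 34.9 CPM in muscle libraries 2, 3 and 4, against 24.0, 17.2 and 16.4 CPM in lymph node libraries 1, 2 and 3. All 3 muscle libraries were above all lymph node libraries, by a margin of a few CPM. The log2 fold change of 0.85 ± 0.30 was not called (adjusted p = 0.203), nor was 0.85 ± 0.27 without muscle library 4 (adjusted p = 0.0573). Ccnd1 was called under 2 of 17 alternatives, the block by column number (1.02, adjusted p = 0.0249) and limma-voom with library weights (0.94, adjusted p = 0.0165). It is also uncertain because 22.6% of its 25-base words occur in other transcripts and LTO1 overlaps it on the opposite strand.

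Ccnd2 (chromosome 6, 127125162 to 127152193), a D cyclin typical of lymphocytes and gonads, measured 128, 134 and 40.3 CPM in muscle libraries 2, 3 and 4, against 119, 125 and 101.5 CPM in lymph node libraries 1, 2 and 3. Muscle library 4 alone was low, on 15 counts, with a 95% counting interval between 22.6 and 66.5 CPM. The log2 fold change was -0.12 ± 0.35 (95% interval -0.90 to 0.66, adjusted p = 0.925) with all libraries and 0.18 ± 0.15 without muscle library 4 (-0.15 to 0.50, adjusted p = 0.563). Ccnd3, the most widely expressed D cyclin (chromosome 17, 47505051 to 47599691), measured 103, 108 and 99.5 CPM in muscle libraries 2, 3 and 4, against 103, 113 and 136 CPM in lymph node libraries 1, 2 and 3. It was the most even of the 10 genes in muscle, and the tissues overlapped. Its log2 fold change was -0.18 ± 0.19 (95% interval -0.62 to 0.26, adjusted p = 0.75), and -0.17 ± 0.16 without muscle library 4 (adjusted p = 0.611). Genes on the opposite strand overlap Ccnd2 and Ccnd3, which share 7.74 and 9.32% of their 25-base words with other transcripts.

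The 3 CIP/KIP inhibitors showed separate patterns. Cdkn1a, which encodes the p53 target p21 (chromosome 17, 29090976 to 29100727), measured 76.0, 97.6 and 16.1 CPM in muscle libraries 2, 3 and 4, against 102, 153 and 167 CPM in lymph node libraries 1, 2 and 3. Muscle library 4 was far below the rest on 6 counts (95% counting interval 5.92 to 35.1 CPM), and muscle library 3 came near lymph node library 1. The log2 fold change of -1.04 ± 0.43 was not called (adjusted p = 0.288). Without muscle library 4 it was smaller and was called, at -0.72 ± 0.21 (adjusted p = 0.034). It was called under 6 of the 17 alternatives, with an adjusted p between 8.17e-04 and 0.644 over all of them. Cdkn1a shares 10.7% of its 25-base words with other transcripts, and AC167363.2 overlaps it on the opposite strand.

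Of the 2 RefSeq starts of Cdkn1a, the upstream window (chr17:29090729-29091028, plus strand) is shown because it holds the matches to the 10-base p53 element, which is found in 8.36% of windows. The capitals begin 73 and 51 bases before that start and match that element on both strands.
Cdkn1a: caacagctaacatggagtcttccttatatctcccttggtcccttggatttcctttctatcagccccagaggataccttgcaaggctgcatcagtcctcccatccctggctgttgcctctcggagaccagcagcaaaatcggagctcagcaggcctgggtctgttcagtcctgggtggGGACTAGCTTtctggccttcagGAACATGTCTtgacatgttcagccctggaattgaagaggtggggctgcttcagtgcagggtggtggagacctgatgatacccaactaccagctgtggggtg

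Cdkn1b (chromosome 6, 134920401 to 134925513), whose protein p27 keeps resting cells out of the cycle, measured 61.2, 66.1 and 75.3 CPM in muscle libraries 2, 3 and 4, against 38.3, 47.3 and 53.7 CPM in lymph node libraries 1, 2 and 3. Muscle libraries were all above lymph node libraries, and muscle library 4 was in keeping with the other muscle libraries. The log2 fold change of 0.52 ± 0.22 was not called (95% interval 0.02 to 1.02, adjusted p = 0.312), nor was 0.44 ± 0.19 without muscle library 4 (adjusted p = 0.184). No alternative called it.

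Cdkn1c, an imprinted gene for p57 (chromosome 7, 143458339 to 143461050), had 40, 25 and 0 counts in muscle libraries 2, 3 and 4, against 3, 7 and 7 counts in lymph node libraries 1, 2 and 3. These are 21.1, 19.2 and 0 CPM in muscle, against 1.71, 3.01 and 3.19 CPM in lymph node. Muscle libraries 2 and 3 were above the lymph node libraries, and muscle library 4 was at 0, which at its depth allows up to 8.06 CPM (3 counts). Summed markers of muscle fibres and satellite cells were also uneven, at 61.7, 72.2 and 18.8 CPM in muscle libraries 2, 3 and 4, against 10.9 to 13.2 CPM in lymph node, with 3, 0 and 4 of 8 markers at 0 in those muscle libraries and 2 of 8 in each lymph node library. The fibre actin gene Acta1 among them measured 35.3, 32.3 and 0 CPM in muscle libraries 2, 3 and 4, against 0, 0.43 and 0 CPM in lymph node libraries 1, 2 and 3. Tnnt3 measured 16.4, 23.8 and 0 CPM in the same muscle libraries, against 2.86, 4.30 and 7.28 CPM in lymph node. The means of Ckm, Mylpf and Myod1 were higher in muscle, at 4.61 CPM or less, and those of Myh4, Myh1 and Pax7 were lower. Summed mural cell markers were between 93.4 and 129 CPM in muscle and between 29.6 and 34.8 CPM in lymph node, with at most 1 of 6 at 0 in any library. Most of the muscle sum was 1 gene, Cspg4, at 73.3, 81.5 and 69.9 CPM in muscle libraries 2, 3 and 4. In lymph node libraries 1, 2 and 3 Cspg4 was at 6.85, 9.45 and 11.4 CPM. The other mural markers averaged at most 9.49 CPM in muscle (Mcam) and 12.7 CPM in lymph node (Notch3). The part of muscle fibre, satellite cell or mural cell RNA in the level of Cdkn1c was not tested. With all 6 libraries the gene fell below the filter and was not tested. When muscle library 4 was left out it passed the filter only through the muscle libraries, where it is high, so the fitted log2 fold change of 2.87 ± 0.42 (7.32-fold, adjusted p = 3.14e-04) describes these libraries. With muscle library 4 kept and no filter it was 2.38 (adjusted p = 0.0184), and without 1 lymph node library it was between 2.27 and 2.61 and not called (adjusted p between 0.401 and 0.433). The gene shares 28.0% of its 25-base words with other transcripts, and Gm44732 overlaps it on the opposite strand.

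Per kilobase of exon length, which allows genes to be compared, the D cyclins had a mean sum of 29.7 CPM per kb in each tissue (33.1 in muscle without library 4), and the inhibitors differed in make-up. Summed D cyclins were at 33.7, 32.5 and 23.0 CPM per kb in muscle libraries 2, 3 and 4, and at 29.5, 29.7 and 29.8 in lymph node libraries 1, 2 and 3. Ccnd1 made up 25.2 ± 6.82% of this sum in muscle and 13.7 ± 3.06% in lymph node, and Ccnd3 40.6 ± 7.61% and 45.1 ± 6.29%. Their muscle shares without library 4 were 21.8 ± 4.5% and 36.3 ± 2.06% (SD, n = 2). Among the inhibitors, Cdkn1a made up 47.3, 53.4 and 21.5% in muscle libraries 2, 3 and 4, against 75.7, 78.4 and 77.9% in lymph node libraries 1, 2 and 3. Cdkn1c made up 22.9, 18.3 and 0% in muscle and between 2.21 and 2.69% in lymph node. Without muscle library 4 the muscle shares were 50.4 ± 4.32% for Cdkn1a, 29.0 ± 1.08% for Cdkn1b and 20.6 ± 3.24% for Cdkn1c (SD, n = 2). Among D cyclins and inhibitors, the shares of Ccnd1, Cdkn1a and Cdkn1b did not overlap between tissues (exact permutation test, two-sided p = 0.1 each). This is the smallest p that 3 against 3 libraries allow, for 12 shares and sums compared, GADD45 family included, and before adjustment.

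Within the GADD45 family Gadd45g led in both tissues, with 82.0 ± 12.7% of the family's CPM per kb in muscle and 78.7 ± 4.53% in lymph node. The family's sum was 69.2 ± 24.9 CPM per kb in muscle and 277 ± 31.2 in lymph node. The muscle share of Gadd45g without library 4 was 89.3 ± 0.302% and the muscle sum 83.4 ± 5.75 CPM per kb. Gadd45a, the p53-responsive member, was at 5.46 CPM or less in every library and was not tested with edgeR. Its share (3.0 ± 1.3% in muscle, 0.934 ± 0.286% in lymph node) and the family's sum also did not overlap between tissues. The same permutation test gave a two-sided p = 0.1 for each, again the smallest possible and before adjustment.

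**Figure D3:**
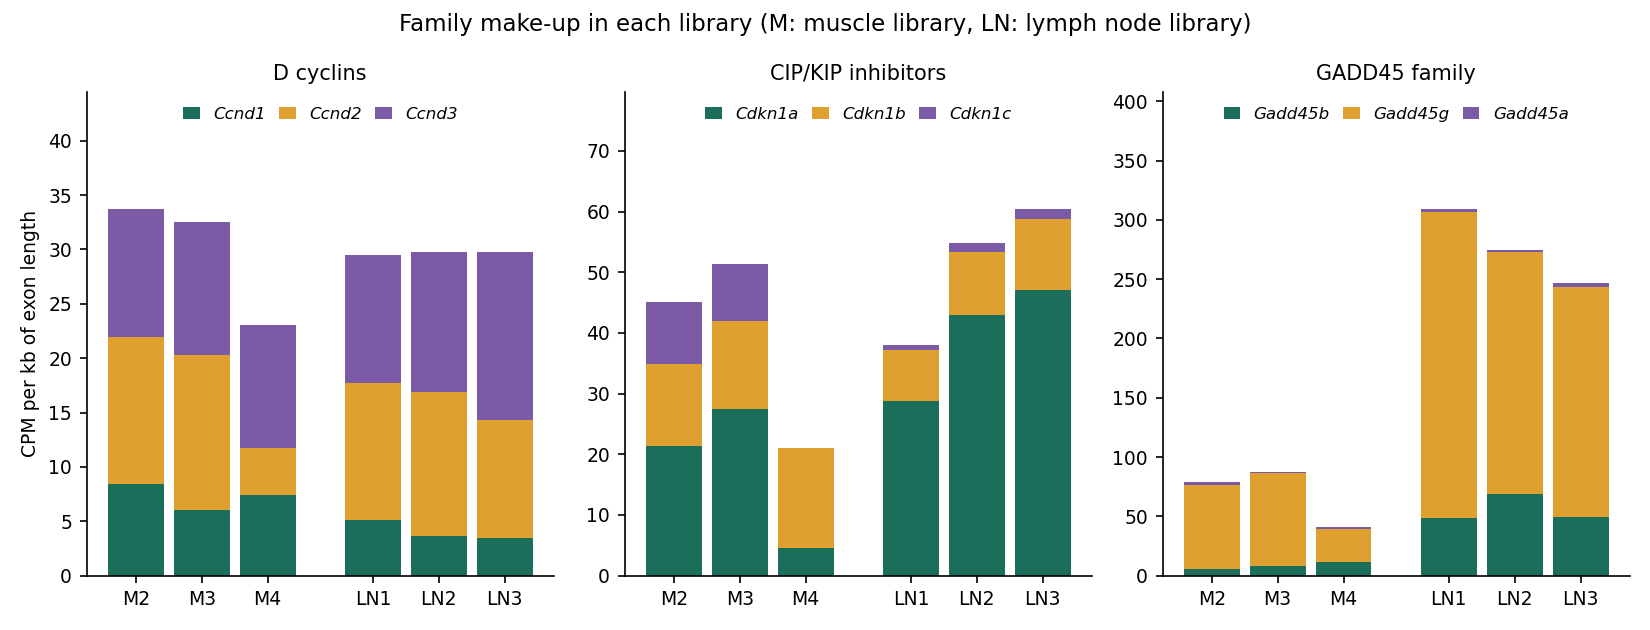
Stacked CPM per kb of exon length of the D cyclins, the CIP/KIP inhibitors and the GADD45 family in each muscle library (M2 to M4) and each lymph node library (LN1 to LN3). The D cyclin sums lie between 23.0 and 33.7 in muscle and between 29.5 and 29.8 in lymph node, while the GADD45 sums lie between 40.9 and 87.5 in muscle and between 247 and 309 in lymph node.

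Lists of the surrounding machinery are read against 4.32% of all tested genes called in either direction, at which lists of this size would hold few calls. With all libraries, none was called among 8 tested G1/S cyclins and CDKs (median log2 fold change 0.16), 2 INK4 inhibitors (0.24), 14 RB, E2F and DREAM genes (0.09), 23 p53 pathway genes (-0.04), 4 relatives in the BTG, TOB and GADD45 families (-0.53), 9 kinases downstream of GADD45 (-0.17), 10 MYC network genes (-0.03), 12 proliferation genes (0.07), 12 genes of p27 turnover and FOXO (-0.06) or 13 quiescence genes (-0.04). The median of all tested genes was 0.02. Of 21 MYC target and nucleolar genes 1 was called, the nucleolar protein gene Nop58, lower in muscle (-1.93 ± 0.23, adjusted p = 0.00177). Of 22 growth factor and MAP kinase inputs, the receptor gene Egfr was lower (-1.18 ± 0.18, adjusted p = 0.00731) and the feedback inhibitor gene Spry1 higher (1.31 ± 0.25, adjusted p = 0.019). Cdk4, the partner of the D cyclins, which Tspan31 overlaps on the opposite strand, measured 97.0, 86.8 and 175 CPM in muscle libraries 2, 3 and 4, against 116, 100.5 and 89.7 CPM in lymph node libraries 1, 2 and 3 (adjusted p = 0.843). Cdkn2a, which encodes p16 and ARF, had 0 counts in all 6 libraries.

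Leaving out muscle library 4 gave calls in further lists, beside a background of 12.4% of all genes in either direction. Among relatives of the members, Btg1 was lower at 40.1 and 35.4 CPM in muscle libraries 2 and 3, against 150, 162 and 172.5 CPM in lymph node libraries 1, 2 and 3 (-2.10, adjusted p = 1.22e-06), and Tob2 was lower (-0.94, adjusted p = 0.0245). In muscle library 4 Btg1 was at 145 CPM. Of 24 p53 pathway genes 2 were lower, the kinase gene Plk2 (-1.41, adjusted p = 0.00152) and the cyclin gene Ccng2 (-1.39, adjusted p = 0.00522). In the MYC network the MAX partner gene Mxd1 was lower (-1.44, adjusted p = 0.011), 1 of 10 tested. Of 21 MYC target and nucleolar genes 4 were lower, Nop58, the polyamine enzyme gene Odc1, Ldha and Eif4a1. Of 13 quiescence genes 1 was higher, Gas1 (1.20, adjusted p = 2.91e-04), a growth arrest gene of fibroblasts, and 3 were lower, Klf2, Cebpd and Txnip. Spry2, Spry1 and Ctnnb1 were higher and Egfr lower among 23 growth factor and MAP kinase inputs. No gene of the G1/S, INK4, RB and E2F, GADD45 kinase or p27 turnover lists was called in that fit.

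Genes of dividing cells were mostly below the filter, which limits what can be tested. Of 34 proliferation genes 22 fell below the filter with all libraries. Without muscle library 4, 18 were tested, 4 were higher and 0 lower. Of these Mki67, Ccna2 and Tpx2 had at most 7 counts in any lymph node library, so they passed the filter only through muscle and their calls are no independent support. Mki67, the marker of cycling cells, measured 26.4, 15.4 and 5.38 CPM in muscle libraries 2, 3 and 4, against 1.14, 2.58 and 3.19 CPM in lymph node libraries 1, 2 and 3, and its log2 fold change without muscle library 4 was 3.12 (adjusted p = 3.72e-04). Ccna2 (3.39, adjusted p = 0.00228), Tpx2 (3.77, adjusted p = 0.00506) and the topoisomerase gene Top2a (1.73, adjusted p = 0.0109) were higher as well. Top2a was highest in muscle library 4, at 56.5 CPM, and Ccna2 was at 0 there. The replication licensing genes Mcm2 to Mcm7 were tested in both fits and none was called.

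**Figure D4:**
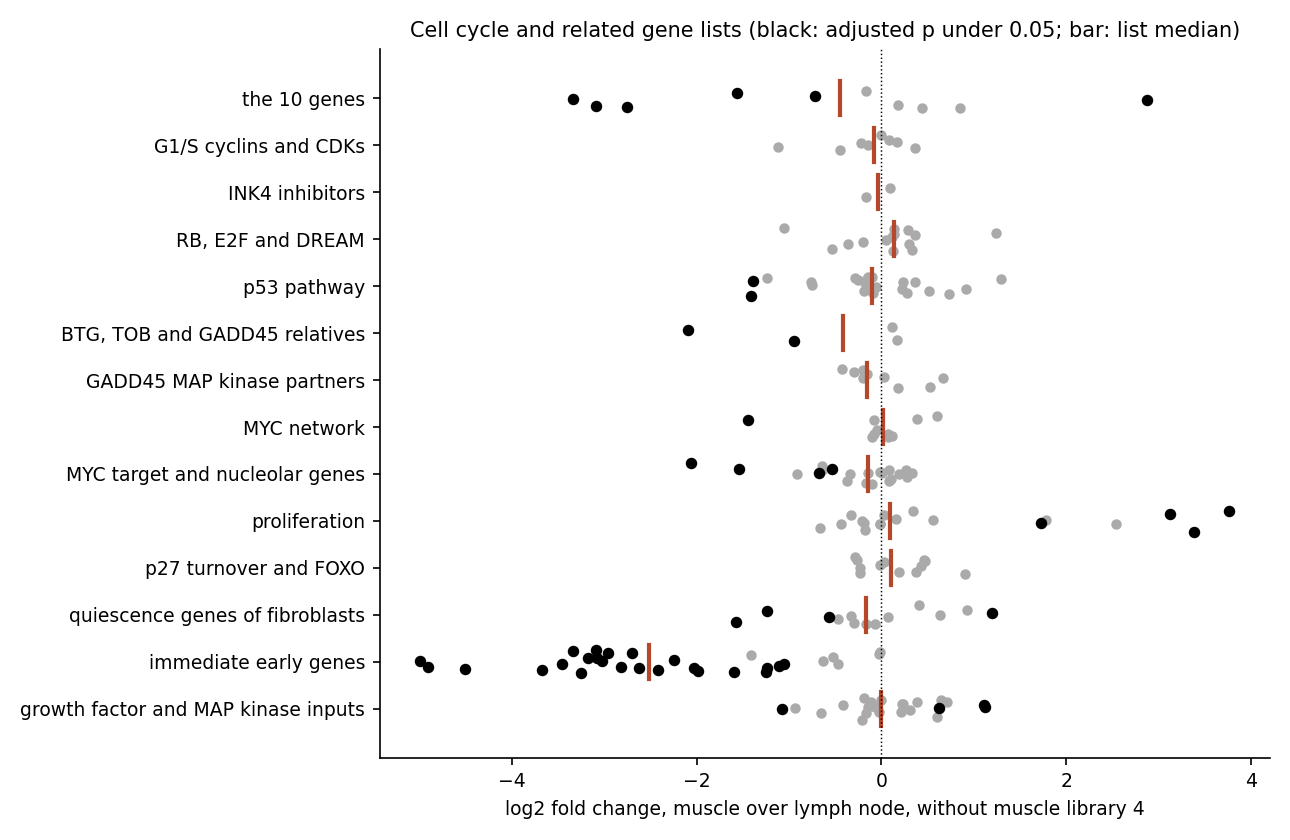
Log2 fold change, muscle over lymph node without muscle library 4, of each tested gene (points, black where the adjusted p was under 0.05) in the 10 genes and in 13 lists, with bars for list medians. The immediate early list lies left of 0 with a median of -2.52, the other lists have medians between -0.41 and 0.13, and 3 of the 4 proliferation genes called right of 0 entered the fit only through muscle.

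Immediate early genes moved with tissue beside Btg2, Gadd45b and Myc. Their sum over 32 genes lay between 3747 and 4518 CPM in the muscle libraries and between 23420 and 26070 CPM in the lymph node libraries, and 22 of 29 tested were called lower in muscle (median -2.66), 0 higher, and without muscle library 4 24 of 30 were (median -2.52). Fosb (-5.07), Atf3 (-5.01), Junb (-3.03) and Fos (-3.67) had the smallest p. Its part in the levels of Btg2, Gadd45b, Gadd45g and Myc was not tested.

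Among the 9 genes tested with all libraries, which leave out Cdkn1c, the pair most alike over the 6 libraries was Btg2 and Gadd45b. Their centred log2 CPM differed by a root mean square of 0.235. Ccnd1 and Cdkn1b followed at 0.372, whereas Ccnd1 and Btg2 were farthest apart at 1.95. Outside the lists, among 3317 genes of at least 50 CPM on average, Btg2 was most like Irf1 (0.203) and C4b (0.257), which has a near-identical copy, and Gadd45b most like Abcc9 (0.243) and Errfi1 (0.317). Myc was most like Chrdl1 (0.203) and Gabra3 (0.303), and Gadd45g most like Tmem106a (0.153) and Htra1 (0.158). Irf1 measured 61.2, 61.5 and 113 CPM in muscle libraries 2, 3 and 4, against 663, 520 and 586 CPM in lymph node libraries 1, 2 and 3, so that its muscle library 4 was also the highest of its tissue. Cdkn1a was most like Xdh (0.188) and Sqor (0.199), and both were also low in muscle library 4, at 80.6 and 18.8 CPM. Ccnd2 and Qsox1 (0.0791), Ccnd3 and Washc4 (0.0622), Cdkn1b and Myo9a (0.07) and Ccnd1 and Rftn1 (0.146) were close as well. With 6 libraries and 3317 candidates such likeness is a description of these libraries.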

How the data were processed

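Counts of reads per gene symbol, 1 column a library, are used as the authors deposited them. Per the labels' protocols, polyadenylated RNA was copied from an oligo(dT) primer, amplified, tagmented and sequenced as paired reads of 25 bases, and no molecular identifiers are described, so intervals and floors reflect counting error alone. The submitters' processing notes list STAR 2.5.4, featureCounts and mm10. The sources used here give no annotation release, strand setting or treatment of multi-mapping reads, so a gene and its antisense partner cannot be told apart. Lymph node columns match titles, and the 3 muscle columns were used as replicates without a link to single samples.

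Tests used edgeR 4.0.16 in R 4.3.3 (filterByExpr, TMM, quasi-likelihood F test on tissue, all 6 libraries), called at an adjusted p under 0.05. The SE is the size of the log2 fold change over the square root of F. CPM use TMM library sizes, and levels per kb use union exon lengths of GENCODE M21 (GRCm38), which held 93.1% of symbols. Promoter windows are RefSeq's. Likeness used log2 CPM with a prior count of 2. DESeq2 1.42.0 and limma 3.58.1 served as alternatives. Libraries of 1 tissue differed by more than sampling noise (a chi-square of at least 2.55 per degree of freedom). The genes and lists were chosen with earlier results of these data known. Named are all 10 genes, up to 4 called genes per list by smallest p in the fit with all libraries and, added later, in the fit without muscle library 4, and the nearest genes. Other genes named (Cdk4, Cdkn2a, Gadd45a, Mcm2 to Mcm7 and single cell type markers such as Ptprc, Acta1 and Cspg4) were picked after their values were seen.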

Additional observations from a re-analysis of the deposited data

How the results depend on the processing

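With all 6 libraries 158 genes were called higher and 310 lower in muscle, and 0 and 4 of the 10. Without a filter the genes numbered 419 and 526, with DESeq2 260 were higher, and with library weights, an alternative chosen after seeing the data, 552 and 814. Summing muscle libraries 2 and 3 gave 55 and 167, 2 and 4 gave 563 and 872, and 3 and 4 gave 494 and 772. Leaving out 1 library gave between 28 and 539 higher and between 114 and 852 lower, most without muscle library 4, and between 0 and 1 of the 10 genes higher and between 2 and 5 lower. Cdkn1c was the 1 higher gene with no filter and with muscle library 4 left out or summed with another, and Ccnd1 the 1 higher gene with library weights and the block. RLE and upper-quartile scaling, the stricter filter and limma-voom kept counts of all genes within 1.5 times. The columns share the numbers 2 and 3 between tissues. Deviations of these same-numbered libraries from their tissue means had r = -0.0258 and 0.0208, and those of differently numbered ones r = -0.0635 and -0.0149. The muscle mean includes the outlying muscle library 4, so these values cannot decide whether libraries were paired. The replicate block, in which muscle library 4 and lymph node library 1 have no partner, gave 627 higher and 903 lower genes and 1 and 5 of the 10. No called value changed sign under any alternative run among the 9 genes tested with all libraries and Nop58, Egfr, Spry1, Fosb, Atf3, Junb and Fos. The sign of the other named genes was not checked in this way. At its depth 1 count is 2.69 CPM in muscle library 4, which limits genes under about 10 CPM.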
